A study of Caenorhabditis elegans with 2 samples.

Results

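A set of 10 body wall muscle genes of Caenorhabditis elegans was examined for regions recovered by chromatin immunoprecipitation and sequencing (ChIP-seq) of ZTF-4, the product of a gene whose name stands for zinc finger transcription factor. It holds 10 of the 19973 protein-coding genes of the annotation: unc-52, pat-3, pat-4, unc-112, pat-6 and unc-97 of the muscle attachment, act-4 and unc-60 of the thin filament, and unc-54 and myo-3 of the thick filament. They were selected on their muscle roles and by the signals of their peaks in these same data, so all counts and signals given for them describe the set and carry no test. The material was whole L1 larvae of mixed sex from strain OP322, which carries the transgene insertion wgIs322 for eGFP-tagged ZTF-4 in animals with the unc-119(ed3) allele on chromosome III. The labels give 1 group of 2 biological replicates and no second genotype, treatment or stage. A control named in the labels was not analysed here. Chromatin came from all tissues of the animal together, so a region at a muscle gene cannot be placed in muscle cells by these data.

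In this muscle the contractile filaments are anchored to the cell membrane at dense bodies and M-lines. There the integrin receptor, of which PAT-3 is the beta subunit, grips the extracellular matrix protein perlecan, which unc-52 encodes. On the inner side of the membrane the integrin recruits the kindlin UNC-112 and a complex of the integrin-linked kinase homologue PAT-4, the parvin homologue PAT-6 and the PINCH homologue UNC-97. Actin filaments are anchored at the dense bodies, and unc-60 encodes cofilin-type proteins that sever and depolymerise actin. The myosin heavy chains of the thick filament are encoded by unc-54 and myo-3.

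The authors' list of IDR peaks, named for the irreproducible discovery rate, held 1898 regions. The 5 IDR peaks of the set had the same ranks in it as in the pooled list, which orders regions by pooled signal. The replicates could differ at an IDR peak. One in an intron of unc-94, a tropomodulin gene, had a signal of 40.2 in replicate 1 and 14.3 in replicate 2. Presence in the list or absence from it is therefore not read as agreement or disagreement of the replicates at that place. Their relaxed lists held 27643 regions (replicate 1), 27140 (replicate 2) and 23044 (pooled) and include background as well as peaks, so a region in them alone is not a called site. The signal of a region is the height that the authors' caller gave it, and ranks count from 1 at the highest signal of a list. Signals of the pooled list lay near the sum of both replicates (median ratio 1.00 over 1767 IDR peaks matched within 100 bp), so pooled signals are not set against those of a replicate. The replicates had like heights over the same peaks (median log2 ratio 0.01), and their signals are compared with that spread in view. Positions are those of the summit relative to the annotated 5' end of the gene, with negative values upstream, and coordinates are in ce11. The files hold no read counts and the depth is unknown.

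The set carried 5 IDR peaks at 4 genes, and repeats of C and T lay at 4 of those summits. The summit and 50 bp to each side are shown for these 4, read 5' to 3' in the direction of the gene, with every CTCTCT or AGAGAG in capitals. They come from the RefSeq assembly WBcel235 and lie upstream of unc-60 at V:1474583-1474683 (plus strand), upstream of pat-6 at IV:264566-264666 (minus strand), upstream of unc-112 at V:14696992-14697092 (minus strand) and in an intron of act-4 at X:4962355-4962455 (plus strand).
unc-60: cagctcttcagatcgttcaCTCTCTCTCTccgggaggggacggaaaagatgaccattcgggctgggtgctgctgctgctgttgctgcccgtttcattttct
pat-6: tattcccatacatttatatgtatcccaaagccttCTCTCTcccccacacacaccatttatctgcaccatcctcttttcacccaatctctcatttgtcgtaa
unc-112: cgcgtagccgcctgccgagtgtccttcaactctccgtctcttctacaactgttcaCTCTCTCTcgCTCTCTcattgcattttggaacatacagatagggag
act-4 intron: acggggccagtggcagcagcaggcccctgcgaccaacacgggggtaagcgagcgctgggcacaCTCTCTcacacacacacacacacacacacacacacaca

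The other act-4 peak had its summit 9 bp past the annotated 5' end, and no such repeat lay within 50 bp of it. The 50 bp before that 5' end, at X:4960571-4960620 on the plus strand, are shown because they hold the letters TATAAA, printed in capitals, from 31 to 26 bp before the annotated 5' end.
act-4 upstream: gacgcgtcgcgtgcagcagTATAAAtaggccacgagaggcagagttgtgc

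Among the attachment genes, pat-6 and unc-112 had 1 IDR peak each and the other 4 had none. Of all protein-coding genes, 9.59% had an IDR peak between 2000 bp upstream and the gene end, and 6.07% had one in the promoter window, which began 1000 bp before the 5' end and reached 200 bp past it. The member count, 4 of 10 by either measure, was fixed by the choice of genes and nothing is read from it.

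The peak of pat-6 (WBGene00003932), IV:264441-264790, lay in intergenic sequence with its summit at −384 bp. Its signal was 36.1 in replicate 1 (rank 1052), 27.4 in replicate 2 (rank 1745) and 68.5 in the pooled list (rank 1052). It was the single region at this gene in each of the lists. The summits of the replicates were 18 bp apart, and no other 5' end was nearer to the summit.

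The peak of unc-112 (WBGene00006836), V:14696867-14697216, was also intergenic, at −388 bp. Replicate 1 gave a signal of 28.3 (rank 1741) at −320 bp and replicate 2 a signal of 37.0 (rank 980) at −396 bp, so the replicate summits were 76 bp apart. The pooled signal was 66.8 (rank 1094), the lowest among the 5 IDR peaks of the set. Here replicate 2 was the higher one, and at pat-6, unc-60 and both act-4 peaks it was replicate 1.

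The beta integrin gene pat-3 came closest to the threshold among the genes without an IDR peak. Its strongest pooled region, III:3915775-3916124, had a signal of 41.1 (rank 2632), while the lowest IDR peak of the whole list had 49.6. At this place the replicates differed, with 11.1 in replicate 1 (rank 13849) and 29.3 in replicate 2 (rank 1537). The summit, at −1801 bp, was nearer to the 5' end of ccdc-47, at −1017 bp from it. In replicate 1 the strongest region of pat-3 was another one, at −1584 bp with a signal of 14.2, so the strongest regions of the replicates were 209 bp apart.

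At pat-4, which encodes the integrin-linked kinase homologue, the strongest pooled region lay at −1551 bp with a signal of 40.4 (rank 2720). The replicates gave 15.5 (rank 6189) and 16.9 (rank 4662) there. Its summit was nearer to the 5' end of C29F9.8, 758 bp downstream of that end and beyond that gene. A second region at −315 bp, nearest to pat-4 itself, had a pooled signal of 27.4 (rank 5734), with 13.8 in replicate 1 and 8.99 in replicate 2. The strongest region of replicate 1 at this gene was in the 3' UTR, at 5349 bp with a signal of 19.8 (rank 3565), and replicate 2 had none within 100 bp of it.

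The PINCH gene unc-97 had its 2 pooled regions at −622 bp (signal 31.2, rank 4392) and −1117 bp (signal 29.6, rank 4856). Replicate 2 gave 18.3 (rank 3932) near the first, where replicate 1 had no summit within 100 bp. Near the second, replicate 1 gave 13.4 (rank 8859) and replicate 2 gave 14.8 (rank 6256).

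The perlecan gene unc-52 spans 37136 bp and held 6 pooled regions, none of them upstream of the gene and none among the IDR peaks. The strongest lay in an intron at 32581 bp with a signal of 37.9 (rank 3033), and both replicates had it as their strongest region of the gene, with 15.7 (rank 6010) and 18.1 (rank 4020) and summits 5 bp apart. The gene has 17 annotated transcripts with several internal starts. This region lay at −838 bp from the start of the transcript that begins farthest downstream and at 934 bp from another start. Per length, unc-52 had 0.153 pooled regions per kb of its window, less than any other member.

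**Figure D1:**
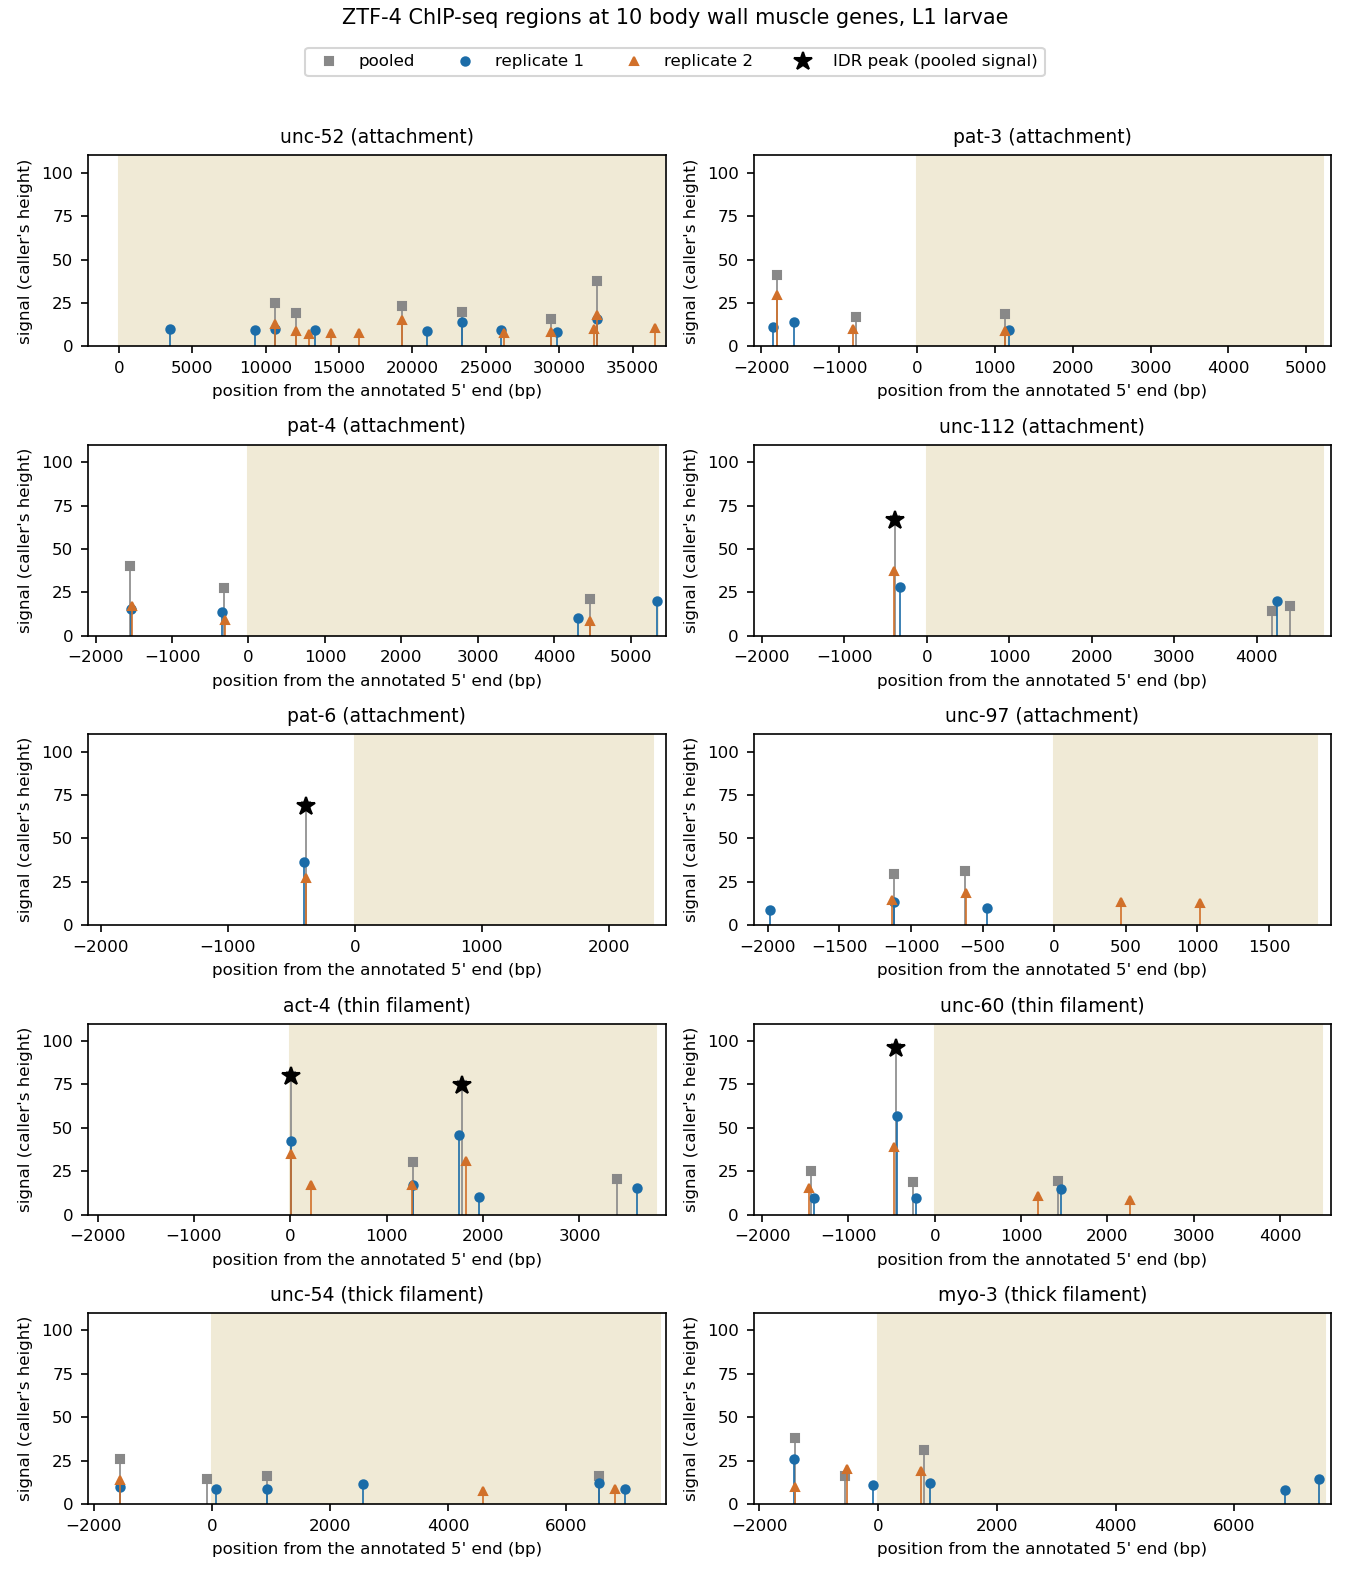
Each panel plots, for 1 gene, the signal of every region of the pooled list (squares), replicate 1 (circles) and replicate 2 (triangles) against the position of its summit from the annotated 5' end in bp, with the gene body shaded and IDR peaks starred at their pooled signal. The stars stand at pooled signals from 66.8 to 96.3, and no pooled region of the other 6 genes is above 41.1.

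The thin filament genes held the highest peaks of the set. The cofilin gene unc-60 (WBGene00006794) had an intergenic IDR peak at V:1474458-1474807, with the summit at −453 bp. Its signal was 56.5 in replicate 1 (rank 414), 38.9 in replicate 2 (rank 875) and 96.3 in the pooled list (rank 537). The replicate summits were 34 bp apart. The 5' end of unc-60 is shared with F53E2.2, an annotated protein-coding gene of 1699 bp on the same strand, so the peak has the same position relative to both.

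The actin gene act-4 (WBGene00000066) was the member with more than 1 IDR peak. Of all protein-coding genes, 1.42% had 2 or more IDR peaks over the same kind of window. The one at the 5' end, X:4960455-4960804, had its summit 9 bp downstream of the annotated 5' end, in the 5' UTR, and both replicates and the pooled list placed the summit on the same base. Its signal was 42.2 in replicate 1 (rank 767), 35.1 in replicate 2 (rank 1078) and 79.6 in the pooled list (rank 787).

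The intronic act-4 peak, X:4962230-4962579, had its summit at 1784 bp. Its signal was 46.1 in replicate 1 (rank 637), 30.6 in replicate 2 (rank 1415) and 74.5 in the pooled list (rank 903). It lay at −470 bp from the start of the second annotated transcript of act-4, which begins 2254 bp into the gene. Replicate 1 had the intronic region as the higher of both and replicate 2 the one at the 5' end. The strongest regions of the replicates were therefore 1745 bp apart at this gene although each peak recurred in both replicates. A weaker region between them, at 1270 bp, had a pooled signal of 30.5 (rank 4581) and 17.0 and 17.3 in the replicates.

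The myosin genes had no IDR peak. At unc-54, which encodes the major heavy chain of body wall muscle, the highest of 4 pooled regions had a signal of 26.2 (rank 6287) at −1563 bp, with 9.77 in replicate 1 (rank 18251) and 13.7 in replicate 2 (rank 7404). This was the lowest maximum of the 10 genes. At myo-3, which encodes the other body wall heavy chain, the strongest pooled region lay at −1398 bp with a signal of 37.9 (rank 3042). The replicates were far apart there, with 26.2 in replicate 1 (rank 1999) and 9.74 in replicate 2 (rank 15736). Replicate 2 had its highest signal for myo-3 at −528 bp, 20.3 (rank 3130). A further pooled region of signal 31.1 (rank 4424), at 767 bp, fell in a myo-3 intron that holds the non-coding gene K12F2.5, whose exon lay under the summit.

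Ordered by their strongest pooled signal, the 10 genes ran unc-60, act-4, pat-6, unc-112, pat-3, pat-4, unc-52, myo-3, unc-97 and unc-54. The gap between unc-112 at 66.8 and pat-3 at 41.1 spans the threshold of 49.6. Within the upper group the replicates did not give 1 order. In replicate 1 the order was that of the pooled list, and in replicate 2 unc-112 came second, before act-4 and pat-6, so that only the first place of unc-60 was the same in both. The neighbours pat-6 and unc-112, at 68.5 and 66.8 in the pooled list, changed places between the replicates.

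All 5 IDR peaks had a region within 100 bp in each replicate, as had 1767 of all 1898 IDR peaks. The log2 ratio of the signal in replicate 1 to that in replicate 2 ran from −0.39 at unc-112 to 0.59 at the act-4 intron, within the span from −0.74 to 0.75 that held the middle 80% of the 1767 matched IDR peaks. The replicate summits were 0 to 76 bp apart, against a median of 25 bp and a 90th percentile of 73.0 bp over those peaks. The gap of 76 bp at unc-112 was past that percentile and the 67 bp at the act-4 intron was below it. Among the genes without an IDR peak the ratio was −1.40 at pat-3 and 1.43 at myo-3, both outside that span, while at unc-52, pat-4 and unc-54 it was −0.21, −0.12 and −0.49. The span is that of IDR peaks, and none was computed for regions below the threshold. Whether such ratios are unusual for weaker regions is therefore not known.

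**Figure D2:**
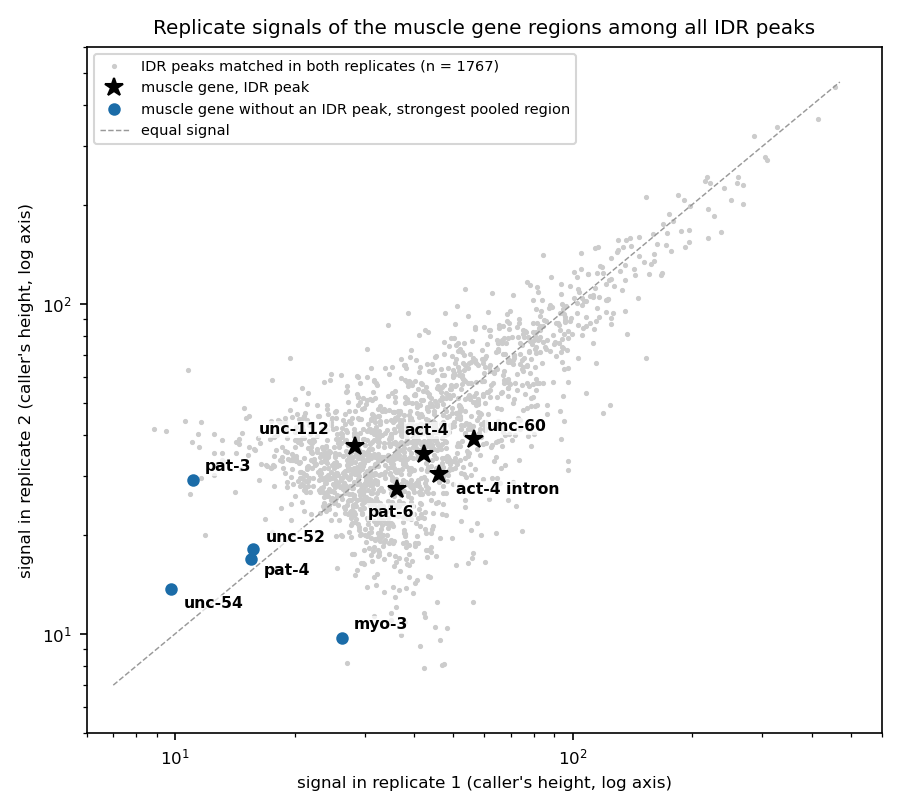
Signal in replicate 2 against signal in replicate 1, both on log axes, for 1767 IDR peaks matched in both replicates (grey), for the 5 IDR peaks of the muscle genes (stars) and for the strongest pooled region of 5 genes without an IDR peak (circles); unc-97 is not shown because replicate 1 had no summit within 100 bp. The stars lie inside the grey cloud, and pat-3 and myo-3 lie far from the dashed line of equal signal on opposite sides.

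With the 1898 strongest regions of a single replicate in place of the IDR peaks, replicate 1 gave the same 4 genes, where 9.09% of all protein-coding genes had such a region. Replicate 2 gave these 4 and pat-3, where the share of all genes was 9.56%. Every member had at least 1 pooled region, as had 55.5% of all protein-coding genes. The median length of the members was 5010 bp against 2027 bp over all genes, with unc-97 at 1833 bp and pat-6 at 2347 bp as the shortest. Per kb of window they had a median of 0.417 pooled regions against 0.157 over all genes. The strongest regions of the replicates lay within 100 bp of each other at unc-52, unc-112, pat-6 and unc-60, which makes 4 of 10 members, and at 34.3% of the 9947 protein-coding genes with a region in both replicates. These shares are near each other.

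The members' 33 pooled regions comprised 15 upstream of the gene, 11 in introns, 5 in coding exons, 1 in a 5' UTR and 1 in a 3' UTR. The 5 IDR peaks comprised 3 upstream, 1 in a 5' UTR and 1 in an intron. All 5 had a width of 350 bp, the common width of the list.

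The members' promoter peaks were of middle height among promoter peaks. Of the 1213 genes with an IDR peak in the promoter window, 399 had a stronger one than unc-60, 586 than act-4, 752 than pat-6 and 778 than unc-112. By pooled signal, the IDR peaks most like that of unc-60 (96.3) were those nearest to fat-2, a fatty acid desaturase gene, and kel-3, with 96.3 and 96.2. Those most like the 5' peak of act-4 (79.6) were nearest to T10B10.4 and to nhr-35, a nuclear hormone receptor gene, with 79.8 and 79.5. The peaks next to that of pat-6 (68.5) were nearest to set-20 (68.5) and nhr-34 (68.2), and those next to that of unc-112 (66.8) were nearest to F13D11.4 (66.9) and Y94H6A.5 (66.8).

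The peaks of unc-112, pat-6 and unc-60 lay farther upstream than most promoter peaks. Their positions of −388, −384 and −453 bp compare with a median of −209 bp over 923 promoter peaks whose nearest 5' end was within the window. Of those 923 peaks, 10.9% lay between −500 and −350 bp, bounds that were set after the members' positions were seen. A narrower window, from −300 to 100 bp, held none of the 3 and left act-4 alone.

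The letters under the members' summits were partly shared. CTCTCT or its reverse complement AGAGAG was present within 50 bp of the summit in 4 of the 5 IDR peaks printed above, namely those of unc-60, pat-6 and unc-112 and the intronic one of act-4. The share over all 1898 IDR summits was 23.9%, and over the 936 IDR summits in promoter windows 22.1% (exact 95% interval 19.5 to 24.9). In windows of the same length centred 300 bp to the left and to the right of the IDR summits it was 4.90% (3.97 to 5.97) and 4.06% (3.21 to 5.04). In the 21146 pooled regions below the threshold it was 8.21% (7.84 to 8.59), and of the 6 genes without an IDR peak it was found at the strongest pooled region of pat-4 alone.

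The longest uninterrupted run of alternating C and T at a member's summit was the 11 bp at unc-60, from 31 to 21 bp before the summit. At unc-112 runs of 9 and 7 bp began 5 and 15 bp after the summit, and at pat-6 a run of 8 bp began 17 bp before it. At the act-4 intron a run of 7 bp began 13 bp after the summit. In all 4 peaks these runs read as C and T on the strand of the gene. Shares of run length or strand over all IDR peaks were not computed. Further runs, of 6 or 7 bp, read as G and A at unc-112 and in the act-4 intron. The strongest pooled region of pat-4, which is not an IDR peak, held C and T runs of 9 and 8 bp. That of pat-3 held a C and T run of 6 bp, from 12 to 17 bp after the summit, and a G and A run of 7 bp. At unc-54 the strongest pooled region held a G and A run of 6 bp. Of the non-members with a promoter peak, cap-2 and mup-2 had G and A runs of 7 bp near the summit, and sca-1 had both kinds. act-2 and tnt-2 had only C and T runs, more than 100 bp from the summit.

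**Figure D3:**
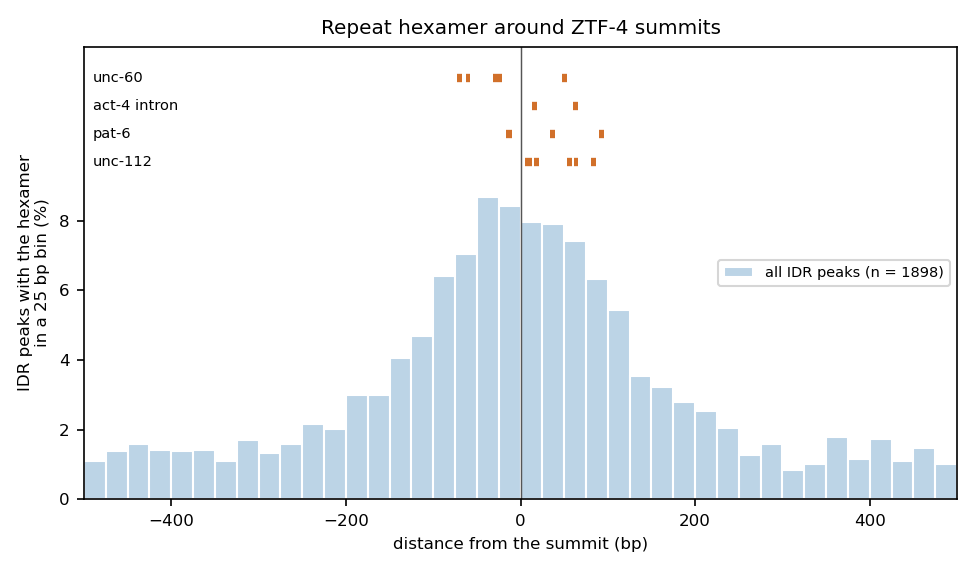
Share of the 1898 IDR peaks that hold the hexamer (in either orientation) in each 25 bp bin against the distance from the summit in bp, with bars drawn above for every run of at least 6 alternating bases of the same kind near the summits of 4 muscle gene peaks. The share is 8.69% in the bin that begins 50 bp before the summit and 1.11% in the bin at the left edge, and the muscle gene runs lie within 96 bp of their summits.

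Other motifs were searched, each on both strands and within 50 bp of the summit. The first was CANNTG, the E-box bound by the muscle regulator HLH-1 and by many related factors. Also searched were GATAAG and, as a separate motif, the core of the MEF2 site, along with TATAAA and GCGCGC. The E-box was present at unc-112 and pat-6 and absent at the other 3 IDR peaks, and it was found at 44.2% of all IDR summits. TATAAA was present at pat-6 and at the 5' peak of act-4, against 4.79% of all IDR summits. GATAAG, the MEF2 core and GCGCGC were absent from all 5 windows, and they occurred at 3.79%, 0.632% and 6.74% of all IDR summits. A match to one of these motifs is not by itself a match to another, though the MEF2 core can hold TATAAA. A missing match says only that the letters are not in the window.

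The members' IDR windows had a GC content from 41.6% at pat-6 to 63.4% at the act-4 intron, with a median of 51.5%. The median over all IDR summits was 46.5%, and 300 bp to either side it was 34.7%. None of the 5 windows had a copy of at least 80 bp and 90% identity elsewhere in the 6 nuclear chromosomes. This holds for both windows of act-4, although the coding sequences of the actin genes are nearly identical.

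Of the actin genes act-1, act-2 and act-3, which lie together on chromosome V, none reached the signals of act-4 in the pooled list. In replicate 2, act-2 was above both act-4 peaks. act-2 had an IDR peak at −381 bp with 21.1 in replicate 1 (rank 3088), 39.3 in replicate 2 (rank 858) and 60.7 in the pooled list (rank 1303). Its window held no CTCTCT or AGAGAG. act-3 had an IDR peak of pooled signal 58.5 (rank 1406) at −1832 bp, outside the promoter window and nearest to the 5' end of act-2, which it lies 1824 bp downstream of. act-1 had none, and its strongest pooled region stood at 34.2 (rank 3688) at −458 bp.

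Over 6 lists of body wall muscle genes, 9 of 81 (11.1%, exact 95% interval 5.21 to 20.0) had an IDR peak in the promoter window, against the 6.07% of all protein-coding genes. Without the 10 members, which were picked with these peaks known, the count was 5 of 71 (7.04%, 2.33 to 15.7), a share near that of all genes. With the 1898 strongest regions of replicate 1 alone it was 3 of 71, where 5.53% of all genes had such a promoter region, and with those of replicate 2 alone it was 5 of 71, where 6.06% had one. Over the longer window, from 2000 bp upstream to the gene end, 15 of 81 genes (18.5%, 10.8 to 28.7) had an IDR peak. Among the non-members it was 11 of 71 (15.5%), against the 9.59% of all genes. The exact 95% interval of the non-members, which reached up to 26.0%, included the 9.59%. A window to the gene end grows with gene length, and lengths were not matched between the lists and all genes. The longer window gave 8 of 71 with replicate 1 alone, where the share of all genes was 9.09%. With replicate 2 alone it gave 12 of 71, where that share was 9.56%.

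Of 17 genes of the thin filament and of actin dynamics, 6 had a promoter peak. Among the non-members it was 4 of 15 (26.7%, 7.79 to 55.1), against the 6.07% of all protein-coding genes. These 4 were the same with replicate 2 alone, where the share of all genes was 6.06%. With replicate 1 alone cap-2 was the single one of 15 (6.67%), where the share of all genes was 5.53%. The list was chosen with earlier results of these data known, so no test was made. The highest of the 4 promoter peaks was at cap-2, which encodes a subunit of the actin capping protein. It had a pooled signal of 233 (rank 71) at −210 bp and 122 and 103 in the replicates. The others were act-2 and the troponin T genes mup-2 (51.7 at −328 bp) and tnt-2 (50.9 at −560 bp), which lay just above the threshold and were higher in replicate 2 (36.8 and 30.4) than in replicate 1 (21.97 and 21.43). unc-94, which encodes a tropomodulin, had 3 IDR peaks in introns, from 53.9 to 59.7. With act-3 and unc-94, 6 of the 15 non-members (40.0%, 16.3 to 67.7) had an IDR peak over the longer window, against 9.59% of all genes. With replicate 1 alone it was 2 of 15 (13.3%), where the share of all genes was 9.09%. These shares over the longer window are not matched for gene length, and the act-3 peak was nearest to the 5' end of act-2.

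Of 21 genes of the integrin attachment complex, pat-6 and unc-112 were those with a promoter peak (9.52%, 1.17 to 30.4). None of the 15 non-members had one, a count that allows a share of up to 20.0% among them. The members were picked with their peaks known, so leaving them out also took out both genes with a peak. The limit for the 15 is therefore not a limit for the complex. None of 9 thick filament genes had one, and the 7 non-members among them allow a share of up to 42.9%. None of 16 genes of epidermal attachment and basement membrane (up to 18.8%) and none of 8 pharyngeal muscle genes (up to 37.5%) had one. The same held for 5 muscle fate regulators, too few to set a useful limit. Of 13 genes of excitation and calcium handling, sca-1, which encodes the calcium pump of the sarcoplasmic reticulum, had a promoter peak of 74.8 (rank 898) at −304 bp, with 40.9 and 34.6 in the replicates. Over the longer window, 3 of these 13 (23.1%, 5.04 to 53.8) had an IDR peak, against 9.59% of all genes. The further ones were dyb-1, a dystrobrevin gene (98.1, rank 510, at −1402 bp), and unc-63, an acetylcholine receptor subunit gene (79.3, rank 791, at −1195 bp). Of the 16 genes of epidermal attachment and basement membrane, 2 (12.5%, 1.55 to 38.3) had one, in introns. These were him-4, which encodes hemicentin (109, rank 407), and ost-1, which encodes SPARC (61.7, rank 1264). Both intervals include the 9.59%. Neither hlh-1 nor unc-120, which encode muscle fate regulators, had an IDR peak from 2000 bp upstream to the gene end. Their strongest pooled regions stood at 38.6 (rank 2920, −102 bp) and 28.8 (rank 5104, −920 bp). In replicate 1, unc-120 had a signal of 27.6 (rank 1833) at −951 bp, within the 1898 strongest regions. With that replicate alone, 1 of the 5 fate regulators thus had a promoter region, as had 5.53% of all genes. Replicate 2 gave unc-120 at most 11.2 (rank 11704).

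**Figure D4:**
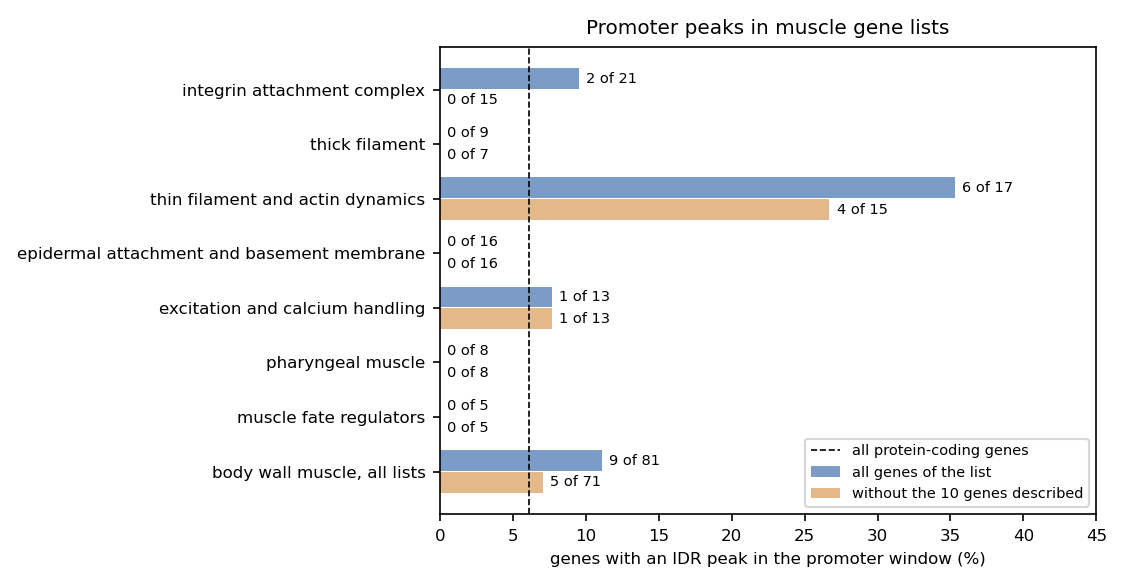
Percentage of genes with an IDR peak in the promoter window in 7 muscle gene lists and in the body wall lists together, with all genes (blue) and without the 10 genes described (tan), the counts beside each bar and the 6.07% of all protein-coding genes as a dashed line. The thin filament list stands at 6 of 17 and the body wall lists together at 5 of 71 without the 10 genes.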

How the data were processed

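ChIP-seq regions of eGFP-tagged ZTF-4 in L1 larvae were taken from the lists that the authors deposited in ce11 for replicate 1, replicate 2, the pooled replicates and the IDR-thresholded peaks. Per the file records, each relaxed list derives from the alignments and 1 further file of unstated role, and the IDR peaks derive from the relaxed lists; the labels name a possible control. The aligner, the caller and the cutoff of the IDR step are not stated in the sources at hand. The deposited signal is the caller's height. The deposited −log10 q value, tied at its maximum for 1576 IDR peaks, was read only to describe the lists. The depth is unknown. The ce10 lists were not used here.

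Genes came from Ensembl release 115 on WBcel235, the same assembly as ce11, and sequences from RefSeq WBcel235. No region ended beyond its chromosome. The window ran from 2000 bp upstream of the annotated 5' end to the gene end, and the promoter window from 1000 bp upstream to 200 bp downstream. Summits within 100 bp counted as the same region. Features were taken in the order coding exon, UTR, other exon, intron. Motifs were searched in the 101 bp around summits, and copies with BLAST+ 2.17.0. Scripts used Python 3.11.15 and numpy 2.4.6 and were tested on peaks placed at known positions. Intervals are exact Clopper-Pearson 95% intervals, limits for a count of 0 are 3 counts of the total, and both cover counting error only.

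The members and lists were chosen with earlier results of these data known. Named genes were the members, genes under or nearer to their IDR summits, at most 4 non-members per list with promoter peaks, act-1 to act-3, hlh-1, unc-120 and the genes nearest to the IDR peaks next in signal. The nearest genes of the other pooled regions, unc-94, dyb-1, unc-63, him-4, ost-1, unc-15 and act-3's distal peak were named after their values were seen. With 1 group there was no comparison between groups and no test.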

Additional observations from a re-analysis of the deposited data

How the results depend on the processing

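The alternatives changed the list of regions, the promoter window, the reach upstream, the 5' end used, the rule for giving a peak to a gene and the distance that counts as shared, and 50 of 69 kept the count within 1.5 times its reported value or moved the value by less than 1 SD. This tally includes counts of 0 in small lists that stayed at 0, and counts over overlapping sets of genes. It is therefore not a measure of how stable the results are. The stronger 949 IDR peaks left 2 of 10 members by either window (4 in the report), 4 of 81 body wall genes (9) and 2 of the 71 without the members (5). All pooled regions gave 10 members from 2000 bp upstream to the gene end, 9 in the promoter window, 40 of 81 and 31 of 71. The window of 300 bp upstream to 100 bp downstream gave 1 member, 2 of 81 and 1 of 71, and that of 2000 bp upstream to 500 bp downstream 8 of 71. Of all protein-coding genes, 55.5% had a pooled region from 2000 bp upstream to the gene end. The share of all genes was not computed for the stronger peaks, these promoter windows or pooled regions in the promoter window. Those counts are therefore not compared with all genes. Leaving out a replicate gave 4 to 5 members over the long window, 4 in the promoter window, 7 to 9 of 81 and 3 to 5 of 71, with the lower counts of the lists without replicate 2. Without the members, and with either replicate alone, the thin filament list gave 1 to 4 of 15 promoter peaks and 2 to 6 of 15 over the longer window, the fate regulators 0 to 1 of 5 by either window (unc-120), the thick filament list 0 to 1 of 7 over the longer window (unc-15, paramyosin), epidermal attachment 1 to 2 of 16 and all 71 genes 8 to 12. The counts without the members were added after seeing the data. The cause of these changes was not tested beyond the settings' own construction. No paired analysis was possible because there is 1 group. Without read counts, the depth that stands behind a signal near the threshold cannot be stated.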
